A study of Mus musculus with 16 samples.

Results

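The genes described here are 8 of the 57132 genes counted in a series on mouse neural stem cells: Srebf2, Insig1, Hmgcs1, Idi1, Fdft1, Sqle, Lss and Dhcr7. They were chosen by name, as the transcription factor of cholesterol synthesis, an inhibitor of that factor and 6 enzymes spread along the pathway. All 8 passed the filter on low counts, with 367 to 7423 reads per gene and library. The cells were labelled mNSC and kept in the growth condition labelled GF, in which they renew themselves. Total RNA was sequenced in 12 libraries, 6 from cells labelled gRNA and 6 from cells labelled control. The series names the agent given with the gRNA as TAPIR, and the labels describe neither TAPIR nor a target of the gRNA, which leaves no targeted gene to check. Each library carries a batch label: gRNA libraries 4 to 6 and control libraries 4 to 6 are batch 2, and gRNA libraries 1 to 3 and control libraries 1 to 3 are batch 1. The numbers only name libraries and pair none of them. The strain, age and sex of the source animals are not in the labels, nor is it stated whether the libraries of a group are separate cultures. The p-values therefore speak only of the spread between libraries, part of which may be technical.

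Cholesterol is built from acetyl-CoA through mevalonate and the isoprenoids to squalene, which is closed into lanosterol and then trimmed to cholesterol. The pathway is governed by SREBP2, the protein made from Srebf2, which waits in the endoplasmic reticulum bound to its escort SCAP. When sterols are plentiful, INSIG proteins hold this complex in place. When sterols run low, the complex moves to the Golgi, proteases release the factor, and it binds sterol regulatory elements in front of genes throughout the pathway, its own included. Liver X receptors (LXRs) act on the opposite side: when oxysterols accumulate, they raise genes of cholesterol export such as Abca1 and Apoe. The brain makes its cholesterol locally, because lipoproteins of the blood do not cross the blood-brain barrier.

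The promoters are shown for the member with a full sterol regulatory element, for Srebf2 itself, and for the 2 members whose mRNA varied most between libraries of batch 2. Those 2, Idi1 and Lss, ranked first only through control library 6. Without it their coefficients of variation were 6.54% and 6.94%, below the 9.23% of Hmgcs1. Each sequence is the 300 bases from 250 before to 50 after a start site of RefSeq on GRCm38.p6. Capitals mark the 9-letter sterol regulatory element TCACNCCAC, its 8-letter core TCACCCCA and the CCAAT box, which reads ATTGG on the opposite strand. The core lies within the longer element and was added to the search after the Srebf2 promoter had been read.
Hmgcs1, chr13:119690101-119690400, plus strand: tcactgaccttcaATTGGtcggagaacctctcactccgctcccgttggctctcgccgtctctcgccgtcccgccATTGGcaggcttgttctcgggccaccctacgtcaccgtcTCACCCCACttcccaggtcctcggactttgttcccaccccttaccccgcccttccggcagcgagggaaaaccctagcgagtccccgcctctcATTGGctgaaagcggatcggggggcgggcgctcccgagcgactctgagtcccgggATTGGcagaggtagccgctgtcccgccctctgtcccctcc
Srebf2, chr15:82147019-82147318, plus strand: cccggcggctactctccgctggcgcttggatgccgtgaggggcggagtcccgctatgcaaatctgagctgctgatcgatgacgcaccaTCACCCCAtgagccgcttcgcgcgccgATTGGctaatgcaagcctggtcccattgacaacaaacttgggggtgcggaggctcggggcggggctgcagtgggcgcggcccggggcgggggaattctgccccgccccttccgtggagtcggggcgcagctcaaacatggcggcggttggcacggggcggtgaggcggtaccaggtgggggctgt
Idi1, chr13:8885356-8885655, plus strand: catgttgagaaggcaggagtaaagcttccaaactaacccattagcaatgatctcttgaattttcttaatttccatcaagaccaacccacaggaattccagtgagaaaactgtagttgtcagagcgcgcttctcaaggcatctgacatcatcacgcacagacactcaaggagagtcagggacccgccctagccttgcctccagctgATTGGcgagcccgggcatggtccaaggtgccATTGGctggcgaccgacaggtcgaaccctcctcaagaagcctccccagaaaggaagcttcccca
Lss, chr10:76531355-76531654, plus strand: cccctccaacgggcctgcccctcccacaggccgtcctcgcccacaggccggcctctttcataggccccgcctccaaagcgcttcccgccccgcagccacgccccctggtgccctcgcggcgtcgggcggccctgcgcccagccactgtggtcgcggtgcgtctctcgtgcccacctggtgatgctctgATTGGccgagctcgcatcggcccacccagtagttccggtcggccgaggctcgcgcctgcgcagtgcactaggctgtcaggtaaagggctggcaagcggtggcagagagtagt

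Promoters were found for 6 of the 8 members, 8 promoters in all because Dhcr7 has 3. On both strands, TCACNCCAC stood in 1.24% of 32851 mouse promoters of this length, and among the members in that of Hmgcs1, beginning 137 bases before the start site. The core TCACCCCA stood in 1.56% of all promoters, and among the members in those of Hmgcs1 and, 162 bases before the start site, Srebf2. The CCAAT box, the site of the factor NF-Y, stood in 37.41% of all promoters and in at least 1 promoter of each of the 6 members. The same held for the GC box GGGCGG, the site of Sp1, at 35.66% of all promoters. The E-box CACGTG, counted once where it reads the same on both strands, stood in 7.15% of all promoters, in that of Insig1 and in 1 of Dhcr7. These matches describe letters in a short window and were not tested as binding sites.

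The libraries held 8414028 to 19454390 reads in genes, with a median of 14918917, and identical counts were found in 0 of 66 library pairs. Levels below are in CPM, the count of a gene per unit of library size after scaling by TMM, and they are not divided by gene length, so they compare libraries and not genes. All 10 neural stem cell markers averaged over 1 CPM, with a summed level of 1938 to 3275 CPM over the 12 libraries. Markers of microglia summed to 1.31 to 6.63 CPM, and 7 of the 8 averaged under 1 CPM. Control library 6 stood apart within batch 2 for sterol genes and for many others. gRNA library 1 and control library 2 were the shallowest, with 10515276 and 8414028 reads in genes.

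None of the 8 genes passed the test between gRNA and control cells, and each gene's range in gRNA libraries overlapped its range in control libraries in both batches. The share of all genes with such an overlap was not computed, so the overlap has no background to be read against. Between batches, Dhcr7 was higher in batch 2 and the other 7 did not pass. Within batch 2, the 7 members other than Srebf2 were lower in control library 6 than the mean of the other 5 libraries, most of all Lss and Idi1.

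Srebf2, the gene of the transcription factor, had a coefficient of variation of 6.81% in batch 2 and 11.1% in batch 1. Lss, Idi1, Dhcr7 and Fdft1 varied less than that in batch 1, with coefficients of 7.04% to 9.64%. Srebf2 was at 415, 429 and 484 CPM in gRNA libraries 4 to 6, against 486, 427 and 449.8 CPM in control libraries 4 to 6. In batch 1 it was at 405, 354 and 378 CPM in gRNA libraries 1 to 3, against 393, 480.2 and 374 CPM in control libraries 1 to 3. Control library 2 was the highest of batch 1, and control library 6 lay inside the range of its batch. The group means were 443 ± 36.7 CPM in gRNA and 454 ± 29.6 CPM in control libraries of batch 2, and 379 ± 25.6 CPM in gRNA and 416 ± 56.6 CPM in control libraries of batch 1 (SD, n = 3 each). The gene overlaps the microRNA gene Mir33 in RefSeq.

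Insig1, whose protein retains the SREBP2 complex and whose gene is itself a target of SREBP2, was at 169.7, 175 and 181 CPM in gRNA libraries 4 to 6, against 200.03, 180.4 and 145 CPM in control libraries 4 to 6. Batch 1 gave 194, 157 and 183 CPM in gRNA libraries 1 to 3, against 173, 229.8 and 176 CPM in control libraries 1 to 3. In batch 2, control library 4 was the highest and control library 6 the lowest, so the control range enclosed the gRNA range. The highest of the 12 was control library 2 and the lowest control library 6. Insig1 overlaps the predicted gene Gm35223.

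Hmgcs1 encodes the synthase that makes HMG-CoA, the precursor of mevalonate. Its level was 218, 229.5 and 247 CPM in gRNA libraries 4 to 6, against 277, 237 and 222 CPM in control libraries 4 to 6. The values of batch 1 were 344, 224 and 241 CPM in gRNA libraries 1 to 3, against 271, 406 and 218 CPM in control libraries 1 to 3. gRNA library 1 and control library 2, the shallowest of the series, stood above the other 4 of their batch in CPM. Their raw counts, 3442 and 3057 reads, were the lowest of batch 1, against 3823 to 4176 reads in the other 4. The coefficient of variation of the CPM was 8.99% in batch 2 and 26.5% in batch 1. The part of depth in that spread was not tested.

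Idi1 encodes the isomerase that converts isopentenyl diphosphate into its reactive isomer. It was at 46.3, 46.7 and 48.0 CPM in gRNA libraries 4 to 6, against 54.2, 48.9 and 26.7 CPM in control libraries 4 to 6. In batch 1 it was at 44.9, 38.9 and 45.3 CPM in gRNA libraries 1 to 3, against 39.98 to 48.99 CPM in control libraries 1 to 3. The gRNA libraries of batch 2 lay close together, and the value of control library 6 was the lowest of all 12.

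Fdft1, squalene synthase, commits farnesyl diphosphate to sterols. Its level was 116, 125 and 125 CPM in gRNA libraries 4 to 6, against 139, 122 and 103 CPM in control libraries 4 to 6. It was at 126, 108 and 121 CPM in gRNA libraries 1 to 3, against 111, 139.7 and 115 CPM in control libraries 1 to 3. Here too the control libraries spanned the gRNA libraries in batch 2. Fdft1 overlaps Ctsb and Gm51283, and without a stated strand setting reads in shared sequence cannot be told apart.

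Sqle, squalene epoxidase, carries out the first oxygenation of the pathway and is a rate-limiting step. It was at 212, 207 and 242 CPM in gRNA libraries 4 to 6, against 256, 219 and 168 CPM in control libraries 4 to 6. The batch 1 values were 245, 194 and 229 CPM in gRNA libraries 1 to 3, against 209.6, 272 and 217 CPM in control libraries 1 to 3. Control library 2 was the highest and control library 6 the lowest of the 12.

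Lss encodes lanosterol synthase, which closes the sterol rings. It was at 239.7, 248 and 213 CPM in gRNA libraries 4 to 6, against 255, 252 and 118 CPM in control libraries 4 to 6. In batch 1 it was at 163, 189 and 200.3 CPM in gRNA libraries 1 to 3, against 179, 184 and 195 CPM in control libraries 1 to 3. Control library 6 was the lowest of the 12, while the other 5 libraries of batch 2 all lay above the 6 of batch 1. Lss overlaps 4930483K19Rik.

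Dhcr7 encodes the reductase that performs the last step of one branch, turning 7-dehydrocholesterol into cholesterol. It was at 182, 184 and 189 CPM in gRNA libraries 4 to 6, against 213, 191 and 153 CPM in control libraries 4 to 6. The batch 1 libraries had 151, 147 and 145 CPM with gRNA, against 149, 179.9 and 141 CPM in control. All 3 gRNA libraries of batch 2 lay above all 6 libraries of batch 1.

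**Figure D1:**
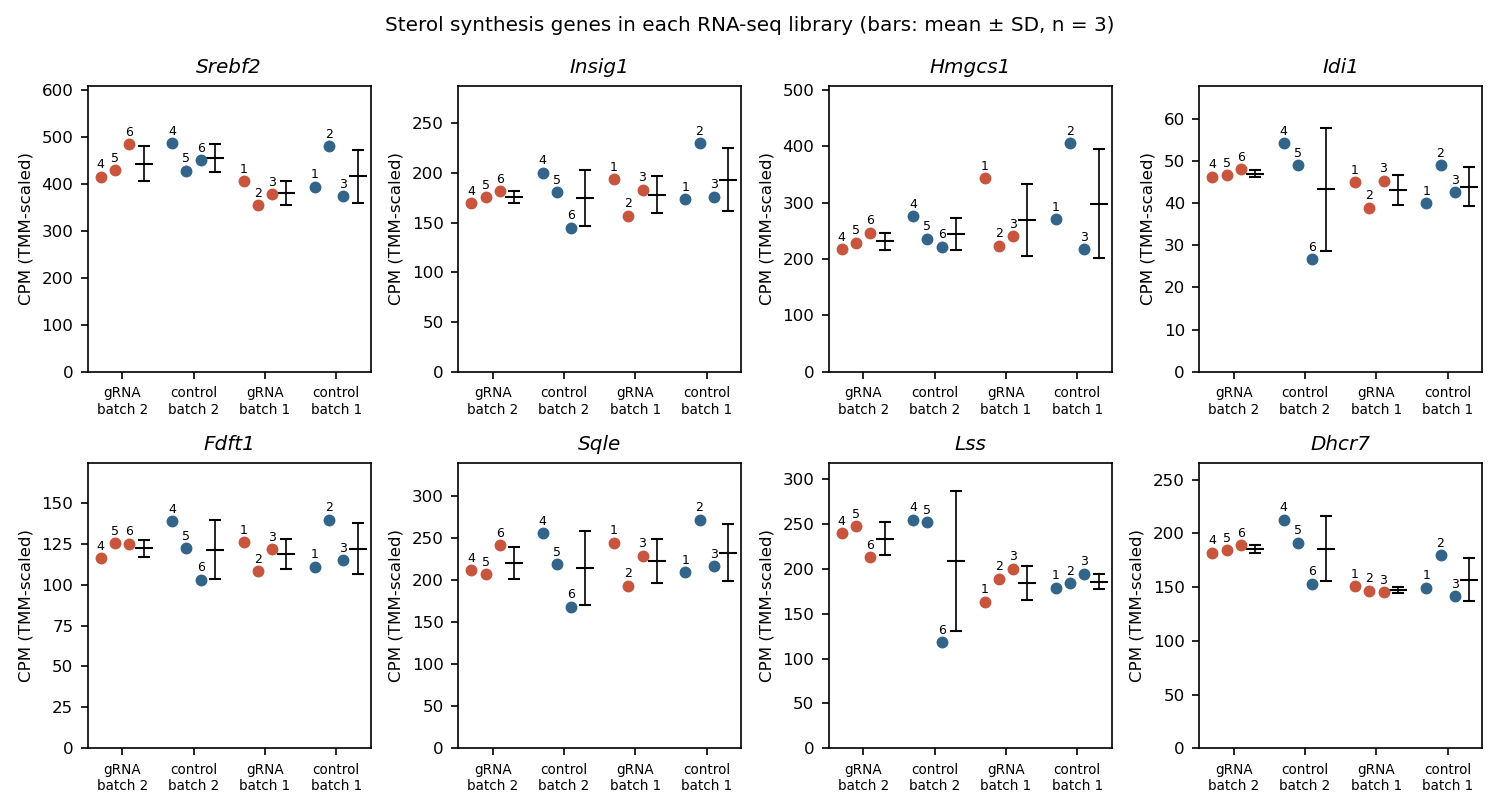
Level in CPM (TMM-scaled; each vertical axis starts at 0) of the 8 genes in the 12 RNA-seq libraries; points are libraries with their numbers, and the bar beside each group is its mean ± SD (n = 3). Control library 6 is low for Idi1 (26.7 CPM) and Lss (118 CPM), and gRNA library 1 and control library 2 are high for Hmgcs1 (344 and 406 CPM).

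For gRNA against control over both batches, the log2 fold changes were small and their signs mixed, 6 below 0 and 2 above 0. Srebf2 was at −0.09 (SE 0.08, 95% interval −0.25 to 0.08, n = 6 per group) and Insig1 at −0.06 (SE 0.10, −0.26 to 0.15). Hmgcs1 had the lowest value, −0.11 (SE 0.14, −0.42 to 0.19), and Lss the highest, 0.08 (SE 0.15, −0.24 to 0.40). Between these lay Idi1 at 0.05 (SE 0.14, −0.25 to 0.34), Dhcr7 at −0.05 (SE 0.08, −0.22 to 0.13), Fdft1 at −0.01 (SE 0.08, −0.19 to 0.16) and Sqle at −0.01 (SE 0.11, −0.24 to 0.21). The adjusted p was 0.9998 for all 8 in edgeR's quasi-likelihood test with Benjamini-Hochberg adjustment over all genes, and 0 of 8 were under an unadjusted p of 0.05. All 8 intervals excluded a change of 1.5-fold in either direction, and 5 excluded a change of 1.25-fold. These numbers were 8 and 7 without control library 6. Over all 17704 genes tested, edgeR called 0 (0.0%), and 230 genes had an unadjusted p under 0.05. That number was 216 in DESeq2 and 232 in limma-voom, which also called 0 each. Each is a smaller share than 0.05, the share that calibrated tests give where no gene differs. The tests may thus be conservative here, and the reason was not tested.

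The sign of the fold changes of 7 members depended on single control libraries, and for Fdft1 and Sqle also on single gRNA libraries. Without control library 6, all 8 members were below 0, from −0.145 to −0.058 with a median of −0.088, beside a median of 0.0031 over all genes. Idi1 and Lss changed sign in that fit, to −0.073 and −0.058. Without control library 2, Insig1, Hmgcs1 and Dhcr7 were at 0.0084, 0.0101 and 0.0028, and Fdft1 and Sqle at 0.0316 and 0.0429. Fdft1 and Sqle were also above 0 without control library 4, at 0.0304 and 0.0457, and without gRNA library 2, at 0.0155 and 0.0335, and Sqle without gRNA library 5, at 0.0009. None of the 8 was called in these fits either.

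The effect of gRNA in batch 2 minus that in batch 1 was above 0 for all 8 members, from 0.05 for Fdft1 to 0.18 for Lss, beside a median of 0.0116 over all genes. None passed (adjusted p = 0.9999 each), and edgeR called 0 of 18279 genes (0.0%) for this difference, while 236 genes had an unadjusted p under 0.05. DESeq2 also called 0, and 180 genes had such a p there. Both numbers are again smaller shares than 0.05. Without control library 6, 6 of the 8 were below 0, Idi1 at −0.11 and Lss at −0.11 among them.

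**Figure D2:**
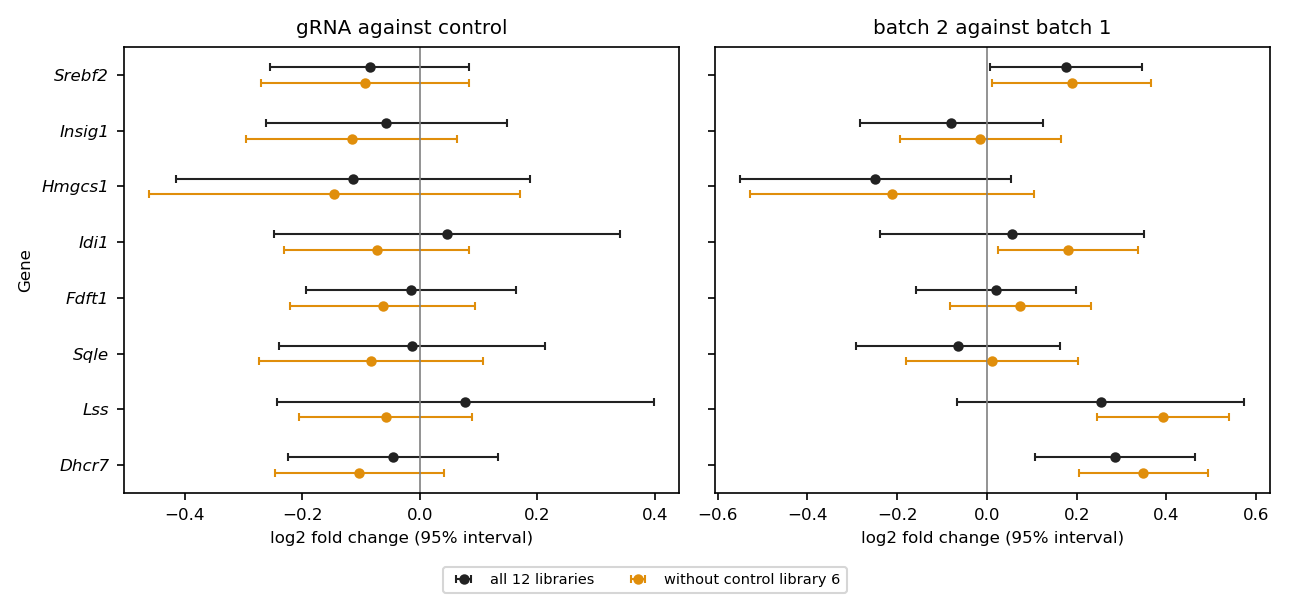
Log2 fold changes with 95% intervals for gRNA against control (left) and batch 2 against batch 1 (right) in edgeR, with all 12 libraries (black) and without control library 6 (orange). Every interval on the left crosses 0; on the right, the intervals, which are not adjusted for the number of genes, lie above 0 for Dhcr7 and Srebf2 in both fits and for Lss and Idi1 without control library 6. Srebf2 did not pass after adjustment in either fit.

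Between batches, Dhcr7 averaged 185 ± 19.3 CPM in batch 2 and 152 ± 13.9 CPM in batch 1 (SD, n = 6 each), a log2 fold change of 0.29 (SE 0.08, edgeR adjusted p = 0.00828). Of the 6 libraries of batch 2, 5 lay above all 6 of batch 1, and control library 6, at 153 CPM, lay inside the range of batch 1. Of the 8 members, 1 was called higher and 0 lower, while over all genes 28.4% were called higher and 33.1% lower, 61.4% in all. A share of 1 in 8 is below that background. Tested within treatments, Dhcr7 passed in gRNA libraries alone (0.35, adjusted p = 0.00319) but not in control libraries alone (0.26, edgeR adjusted p = 0.213).

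Srebf2 averaged 449 ± 30.5 CPM in batch 2 and 398 ± 44.1 CPM in batch 1 (SD, n = 6 each), at a log2 fold change of 0.18 (SE 0.08, adjusted p = 0.0674 in edgeR). It passed without control library 2 (0.255, adjusted p = 0.00216) and without control library 3 (0.19, adjusted p = 0.029), in DESeq2 (0.18, adjusted p = 0.0277) and with other size factors in edgeR (0.18, adjusted p = 0.0438). It did not pass in limma-voom (adjusted p = 0.0515), among genes averaging 50 counts or more (adjusted p = 0.110), or in the 10 other fits that left out 1 library (adjusted p from 0.0547 to 0.142 in edgeR). Lss averaged 221 ± 52.6 CPM in batch 2 and 185 ± 13.0 CPM in batch 1, at 0.25 (SE 0.15, adjusted p = 0.158 in edgeR). In gRNA libraries alone, Srebf2 (0.25, adjusted p = 0.0445) and Lss (0.37, adjusted p = 0.0202) passed. Hmgcs1 was at −0.25 (SE 0.14, adjusted p = 0.140), with 238 ± 21.4 CPM in batch 2 and 284 ± 75.3 CPM in batch 1. The fold changes of Idi1, Fdft1, Sqle and Insig1 were 0.06, 0.02, −0.06 and −0.08, with edgeR adjusted p-values of 0.744, 0.848, 0.621 and 0.496.

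Leaving out control library 6 raised the number of members called higher to 3, beside 30.1% of all genes in that fit. Lss was then at 0.39 (SE 0.07, edgeR adjusted p = 0.000176), Idi1 at 0.18 (SE 0.07, adjusted p = 0.0421) and Dhcr7 at 0.35 (SE 0.07, adjusted p = 0.000398). The batches also differed in the reads assigned to no gene, 8.83% to 12.7% in batch 2 and 18.95% to 25.07% in batch 1. Summed mesenchyme and meninges markers were at 72.1 to 118 CPM in batch 2 and 326 to 435 CPM in batch 1. However, 5 of these 8 averaged under 1 CPM, and of the 3 tested, 1 was called higher in batch 2 and 2 lower. Oligodendrocyte lineage markers summed to 588 to 874 CPM in batch 2 and 385 to 560 CPM in batch 1. The part of the unassigned reads and of these markers in the batch differences of the members was not tested. In bulk RNA, fewer cells of a type and less RNA per cell cannot be told apart.

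The rest of the pathway was read from a list of 22 enzymes, which includes the 6 members that are enzymes. For gRNA against control, 0 of 22 passed, 13 were above 0 and 9 below, and the median was 0.014 beside −0.0074 over all genes. Without control library 6, 20 of the 22 were below 0. Between batches, 8 of 22 were called higher in batch 2 and 1 lower, with a median of 0.123 beside −0.0297 over all genes, of which 28.4% were called higher and 33.1% lower.

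With all 12 libraries, the enzymes called higher in batch 2 came from the early and the late steps of the pathway. Mvd, the decarboxylase that ends the mevalonate segment, was at 0.66 (SE 0.11), with 88.0 ± 13.9 CPM in batch 2 and 55.6 ± 4.56 CPM in batch 1 (SD, n = 6 each). Tm7sf2, a sterol reductase of the later steps, was at 0.63 (SE 0.10), with 77.8 ± 11.1 CPM in batch 2 and 50.1 ± 3.44 CPM in batch 1. Acat2, which joins acetyl-CoA units, was at 0.39. Pmvk, the kinase of phosphomevalonate, was at 0.35 and Mvk, the kinase of mevalonate, at 0.26. Nsdhl, a sterol dehydrogenase, was at 0.31 and Lbr, a sterol reductase and lamin receptor, at 0.22. Ggps1, which diverts isoprenoids to geranylgeranyl diphosphate, was lower, at −0.26. In the fit without control library 6, 13 of the 22 were called higher and 1 lower, beside 30.1% of all genes called higher there. Idi1 and Lss, of the middle steps, were among the 13.

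Among 15 genes that regulate SREBP2 or SREBP processing, 1 was called higher in batch 2, the site-1 protease gene Mbtps1 (0.32, SE 0.06), and 2 lower, the COPII coat gene Sec24a (−0.39, SE 0.08) and Erlin2 (−0.24, SE 0.06). Of 14 genes of cholesterol uptake and trafficking, 6 were called higher and 3 lower. Stard3, a sterol transporter of late endosomes, was higher at 0.62 (SE 0.08), and Gramd1b, which carries cholesterol from the plasma membrane, lower at −2.25 (SE 0.21). The LXR and export list had 10 tested genes of 11, 1 higher, the receptor gene Nr1h2 (0.72, SE 0.07), and 7 lower, with a median of −1.254. The exporter Abcg4 was at −3.98 (SE 0.19) and the receptor gene Nr1h3 at −1.69 (SE 0.24). Fatty acid synthesis, run by the related factor SREBP1, had 3 genes higher and 4 lower of 15 tested, with a median of −0.09. Over all genes, 28.4% were called higher and 33.1% lower. Without control library 6, 2 regulators were called higher and 2 lower of 15, 7 uptake and trafficking genes higher and 3 lower of 14, 1 LXR and export gene higher and 7 lower of 10, and 4 fatty acid synthesis genes higher and 5 lower of 16 tested, beside 30.1% of all genes called higher. For gRNA against control, 0 genes of these 4 lists passed in edgeR and 0 were under an unadjusted p of 0.05.

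Control library 6 was then set against the mean log2 CPM of the other 5 libraries of batch 2; with 1 library there is no test. Lss was at 48.9% and Idi1 at 54.7% of the mean of the other 5, Sqle at 74.1%, Dhcr7 at 79.7%, Insig1 at 79.8%, Fdft1 at 82.1% and Hmgcs1 at 92.1%. Srebf2 was at 100.35%, so the mRNA of the factor was at the mean of the other 5 while those of the enzymes lay below it. In log2 terms these differences were −1.03 for Lss, −0.86 for Idi1, −0.43 for Sqle, −0.32 for Dhcr7 and Insig1, −0.28 for Fdft1, −0.11 for Hmgcs1 and 0.008 for Srebf2. Of the members, 6 of 8 had their lowest batch 2 value in this library.

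The pattern covered the enzyme list. All 22 enzymes were below 0 in control library 6, from −1.28 for Hsd17b7, a ketoreductase of the sterol demethylation steps, to −0.11 for Hmgcs1, with a median of −0.464, beside 0.028 over 12419 genes averaging 50 counts or more. For 21 of the 22, this library was the lowest of batch 2. More than 1.25-fold below the other 5 were 5 of 8 members and 18 of 22 enzymes, against 20.4% of all genes. In the other 11 libraries, 0 or 1 of the 8 members and 0 or 1 of the 22 enzymes lay that far below, and the share of all genes there was 3.49% to 13.8%.

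**Figure D3:**
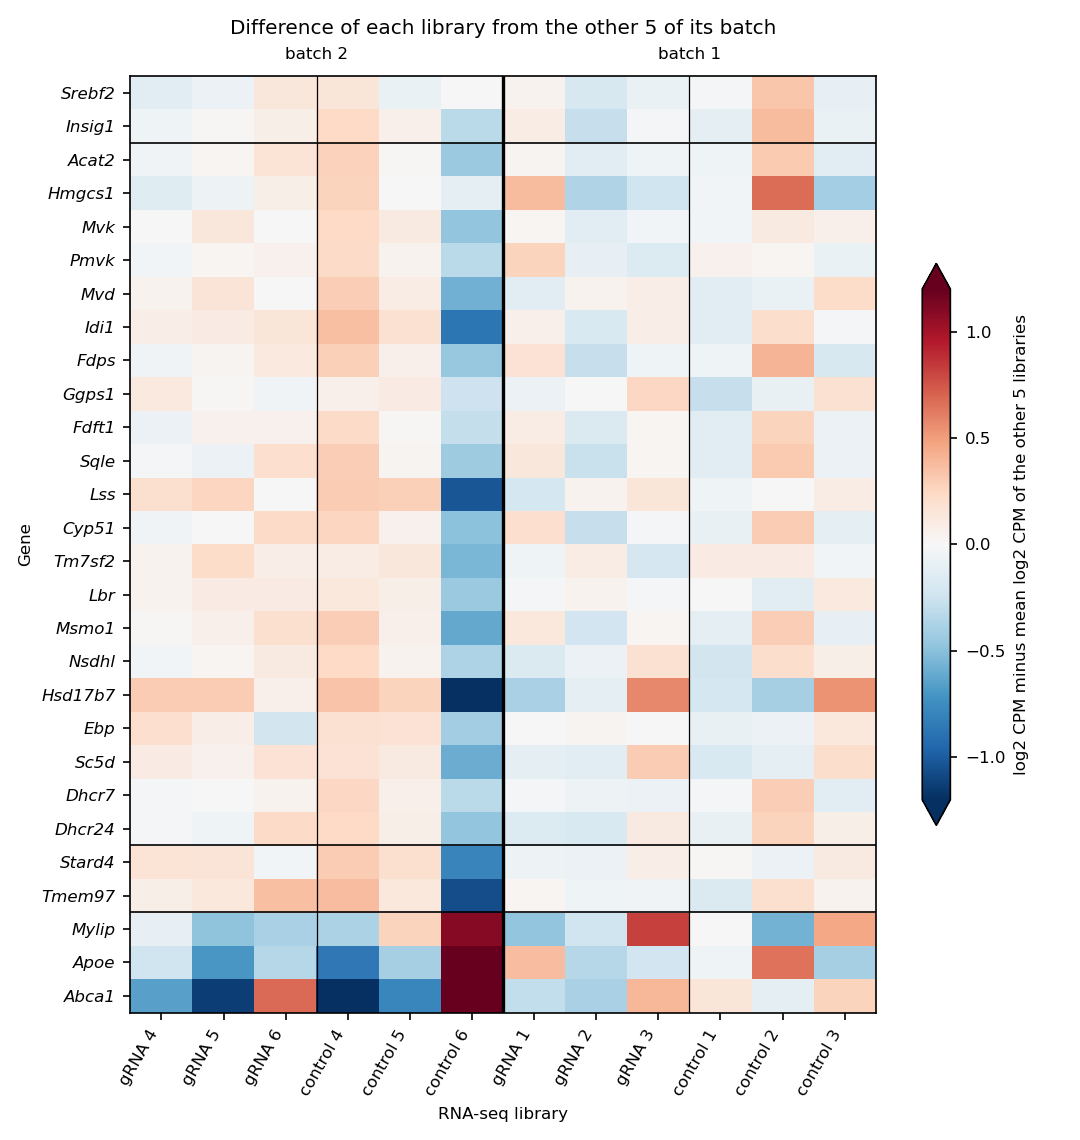
Difference of each library from the mean of the other 5 libraries of its batch, in log2 CPM (colour scale ends at ±1.2), for Srebf2 and Insig1, 21 of the 22 enzymes in pathway order, Stard4 and Tmem97, and 3 LXR target genes. The column of control library 6 is blue for all enzymes shown and red for Mylip, Apoe and Abca1, and that of control library 4 is red for all enzymes shown.

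Other sterol genes, singled out after their values were seen, lay apart in both directions in control library 6. Tmem97 was at 39.1 CPM in control library 6 and 75.5 to 89.8 CPM in the other 5, and Stard4, a sterol carrier, at 113 CPM in control library 6 and 176 to 214 CPM in the other 5. Abca1, the LXR target that exports cholesterol, was at 288 CPM in control library 6, 68.9 CPM in gRNA library 6 and 22.4 to 32.0 CPM in the rest of batch 2. Apoe, a lipid carrier and LXR target, was at 87.7 CPM in control library 6 and 12.3 to 17.6 CPM in the other 5, and Mylip, a ubiquitin ligase gene and LXR target, at 9.68 and 3.82 to 5.98 CPM. In batch 1, Abca1 was at 171 to 270.2 CPM and Apoe at 82.8 to 151 CPM, so control library 6 lay above the range of batch 1 for Abca1 and inside it for Apoe. For Insig1, Idi1, Fdft1, Sqle and Lss it lay below all other libraries of both batches.

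By list, 9 of 10 LXR and export genes were above 0 in control library 6, with a median of 0.532. Over all genes averaging 50 counts or more, 6575 of 12419 were above 0 there. The list gene below 0 was Abcg4, at −0.289. Some of the list had few reads, such as Nr1h3, with 14 in control library 6 and 4 to 14 in the rest of batch 2. Of 14 uptake and trafficking genes, 9 were above and 5 below, Npc1, which moves cholesterol out of lysosomes, at 0.72. The 15 regulators of SREBP2 divided into 7 above and 8 below, with a median of −0.083, and 15 fatty acid synthesis genes into 5 above and 10 below, with a median of −0.033. These counts describe 1 library and have no test.

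Summed marker levels of other cell types also differed in this library. The 9 astrocyte markers summed to 1227 CPM in control library 6 and 808 to 1143 CPM in the other 5, with 8 of 9 above 0 and a median of 1.069. This was partly shared by gRNA library 6, where 8 of 9 were also above 0, with a median of 0.261. Gfap was at 40.8 CPM in gRNA library 6, 31.3 CPM in control library 6 and 0.391 to 1.35 CPM in the rest of batch 2. Oligodendrocyte lineage markers summed to 874 CPM in control library 6 and 588 to 637 CPM in the other 5, and 5 of these 12 averaged under 1 CPM over the series. Neuron markers summed to 822 CPM in control library 6 and 657 to 733 CPM in the other 5, with 4 of 7 above 0, 3 below and a median of 0.215. Most of that sum was Map2, at 745 CPM in control library 6 and 600 to 692 CPM in the other 5. Of the 9 neuron markers, 2 averaged under 1 CPM, and Rbfox3 was lower in control library 6, at −1.77. Neural stem cell markers summed to 2386 CPM in control library 6 and 1938 to 2286 CPM in the other 5. Microglia markers were at 1.31 CPM in control library 6, the lowest of its batch. No marker of these lists was at 0 in all 12 libraries. The part of these cell types in the low sterol enzymes of control library 6 was not tested.

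**Figure D4:**
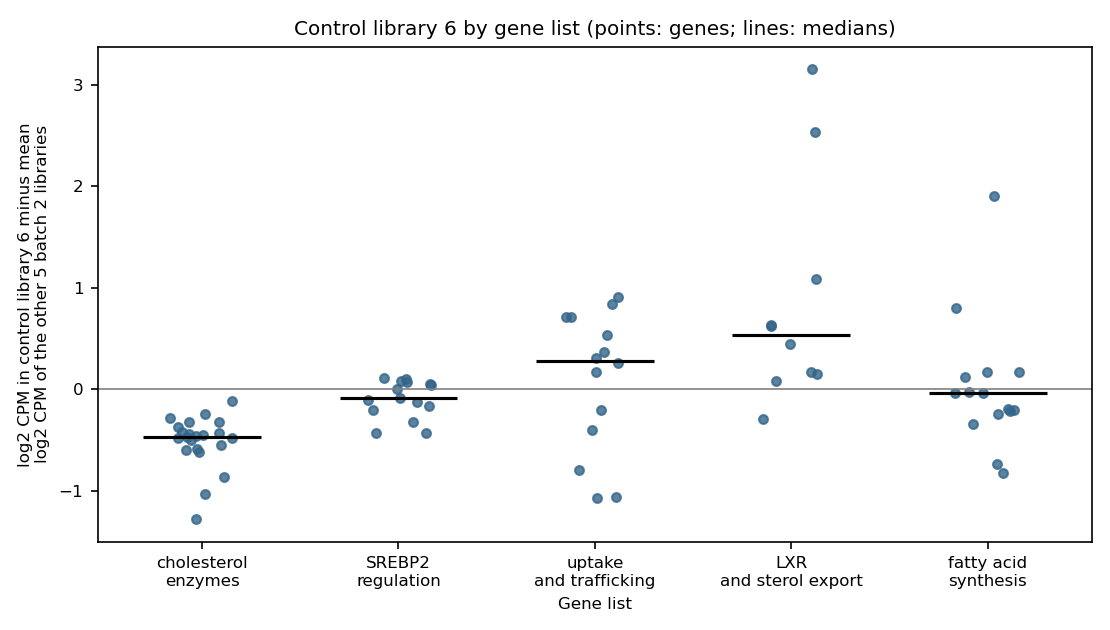
Log2 CPM in control library 6 minus the mean log2 CPM of the other 5 batch 2 libraries, 1 point per gene, with the median of each list as a line. All 22 cholesterol enzymes lie below 0 (median −0.464), while the LXR and export list has 9 of 10 genes above 0 (median 0.532).

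Smaller shifts shared by the members were seen in other libraries. With control library 6 left out, control library 4 was above the mean of the other 4 libraries of batch 2 for all 8 members (median 0.186) and 21 of 22 enzymes (median 0.171), and gRNA library 4 was below it for all 8 members (median −0.118) and 19 of 22 enzymes. In batch 1, control library 2 was above the other 5 for 7 of 8 members, with a median of 0.306, Hmgcs1 at 0.67 and Lss at −0.006. Control library 2 was likewise above them for 14 of 15 fatty acid synthesis genes (median 0.425) and 8 of 10 neural stem cell markers (median 0.413). Its median over all genes averaging 50 counts or more was 0.005. gRNA library 2 was below the other 5 for 7 of 8 members (median −0.189), 12 of 15 fatty acid synthesis genes (median −0.202) and 7 of 10 neural stem cell markers (median −0.25). The shifts of control library 2 and gRNA library 2 were thus not particular to the members. Those of batch 2 were partly shared by other lists, with control library 6 kept in the comparison. gRNA library 4 was below the other 5 for 10 of 10 neural stem cell markers (median −0.186) and 12 of 15 fatty acid synthesis genes (median −0.081). Control library 4 was above them for 11 of 15 fatty acid synthesis genes (median 0.158) and 5 of 10 neural stem cell markers (median −0.002). Control library 1 was below the other 5 for all 8 members, with a median of −0.079, beside −0.029 over all genes averaging 50 counts or more. The libraries that stood high or low thus included both treatments. They also differed in depth. In batch 2, control library 4 was the shallowest, with 13011630 reads in genes, and gRNA library 4 the deepest, with 16984538. In batch 1, control library 2 was the shallowest, with 8414028, while gRNA library 2 had 17730086. The part of depth in these shifts was not tested.

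Across the 12 libraries, after subtracting each batch's mean, many pairs of members varied together. The 21 pairs among the 7 members without Srebf2 had a median Pearson r of 0.807, up to 0.973 for Insig1 with Fdft1, and a median of 0.843 without control library 6. Srebf2 had a median r of 0.686 with the other 7, and 0.869 without control library 6. The pairs of Lss ranged widely, with an r of 0.887 with Idi1, 0.631 with Dhcr7, 0.493 with Insig1 and −0.014 with Hmgcs1. Leaving out control library 6 gave 0.099, −0.01, −0.103 and −0.415. Over the 12 libraries Idi1 also had low values with Srebf2, 0.278, and with Hmgcs1, 0.392, which were 0.764 and 0.728 without control library 6. These values describe 12 libraries and carry no p, and within a library all genes share its scaling and depth. Control library 2 was the shallowest, with 8414028 reads in genes, and control library 3 the deepest, with 19454390. From the former to the latter, reads rose from 3057 to 4176 for Hmgcs1, from 1731 to 3368 for Insig1 and from 1386 to 3723 for Lss. The part of depth in these correlations was not tested.

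The genes outside the lists whose levels were most like the mean of the 8 members over the 12 libraries, out of 11306 genes, were Olfm2 (r = 0.97), Txnl1 (0.966), Nptx1 (0.965), Atp13a3 (0.961) and Peg10 (0.961). Without control library 6 these values were 0.936, 0.932, 0.929, 0.926 and 0.927, and in that library the 5 genes were between 0.404 and 0.649 below the other 5 of its batch in log2 terms. Among the listed enzymes that are not members, Fdps had 0.981, Acat2 0.98 and Msmo1 0.978. The values of Hsd17b7 and Ggps1 were 0.43 and 0.263.

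The series also has 4 libraries of ribosome footprints, 2 labelled gRNA and 2 labelled control. The deposited P-site table names transcripts and not genes, and its library names match no label, so footprints in the coding sequences of the 8 genes were not analysed here.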

How the data were processed

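The deposited files hold raw counts of reads for each Ensembl gene in 12 libraries of total RNA, made, per the labels' protocols, with a stranded kit after ribosomal RNA removal. Trimmomatic, STAR, SAMtools and HTSeq were used on GRCm39, per the submitters' processing notes. The 5 summary lines of HTSeq entered neither library sizes nor tests. Tool versions, the gene annotation and the use of strand in counting are not given in the sources. Symbols were matched to 51880 identifiers (90.81%).

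Counts were fitted with edgeR 4.0.16 in R 4.3.3: filterByExpr with a minimum count of 10, TMM scaling and the quasi-likelihood test over all 12 libraries with batch and treatment as terms, with Benjamini-Hochberg adjustment at 0.05 over all genes tested. A further fit added their interaction. Intervals are at 95%, and differences between libraries use log2 CPM with a prior count of 2. DESeq2 1.42.0, limma-voom (limma 3.58.1), other filters and scalings, single batches or treatments and leaving out each library were alternatives. The fits were tested on simulated counts. The ribosome P-site table was not used, because its transcripts and libraries could not be matched to genes and labels, so the planned footprint values are missing.

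The members and gene lists were chosen with earlier results of these data known. All 8 members are named, and of the other lists the cholesterol enzymes and up to 4 genes with the smallest p. Genes named for control library 6, and the core of the sterol regulatory element, were chosen after their values or letters were seen. The most similar genes were the 5 with the highest Pearson correlation with the members' mean, on batch-centred log2 CPM, among genes averaging 50 counts or more. Promoters are from RefSeq on GRCm38.p6, and none of their coordinates was joined to the counts. Python 3.11.15 with pandas 2.3.3, numpy 2.4.6 and matplotlib 3.10.9 made tables and figures. A few genes of the lists remain in the tests and counts and are not reported here by name.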

Additional observations from a re-analysis of the deposited data

Results flagged for a closer look

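Each member was screened for 1 distant library among the 6 gRNA and the 6 control libraries, on log2 CPM centred on the batch, by Dixon's ratio of the gap to the nearest library over the whole range, with a critical value of 0.625 for 6 libraries. Of 16 groups screened, 3 passed, where chance flags about 1 in 20 groups. Lss was lowest in control library 6 (ratio 0.732), at −0.857 from its batch mean on the log2 scale. Among gRNA libraries, Insig1 (ratio 0.631) and Idi1 (ratio 0.746) were lowest in gRNA library 2. Their distances from the batch mean there were −0.229 and −0.154.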

How the results depend on the processing

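For gRNA against control and for the difference of that effect between batches, 0 of the 8 members were called under every alternative run. With every counted gene kept, edgeR called 1 gene for gRNA against control and 42 genes for the difference between batches, against 0 for both with the filter on low counts. For batch 2 against batch 1, 1 member was called. That count was 2 with DESeq2's size factors in edgeR, 2 in DESeq2, 3 without a low-count filter, 3 in gRNA libraries alone and 0 in control libraries alone. It ranged from 1 to 3 over the fits without 1 library, being 2 without control library 2 or control library 3 and 3 without control library 6. Both sets of libraries left out together were chosen after seeing the data: the count was 2 without gRNA library 1 and control library 2, and 5 without these and control library 6. The cause was not tested.

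Directions of members that did not pass changed in some fits. For gRNA against control, log2 fold changes were 0.01 for Insig1, 0.0149 for Fdft1, 0.0449 for Sqle and 0.0019 for Dhcr7 in batch 2 alone, and −0.0176 for Idi1 and −0.0042 for Lss in batch 1 alone. Without gRNA library 1 and control library 2, Fdft1 was at 0.0206, Sqle at 0.0227 and Dhcr7 at 0.0052, and without control library 6 as well, Idi1 was at −0.0639 and Lss at −0.0394. Leaving out 1 library gave −0.1156 to 0.0084 for Insig1, −0.2035 to 0.0101 for Hmgcs1, −0.0728 to 0.124 for Idi1, −0.0629 to 0.0316 for Fdft1, −0.0833 to 0.0457 for Sqle, −0.0581 to 0.1421 for Lss and −0.1033 to 0.0028 for Dhcr7.

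For batch 2 against batch 1, gRNA libraries alone gave Insig1 0.0102 and Sqle 0.0166, control libraries alone Idi1 −0.0043, and genes averaging 50 counts or more Fdft1 −0.0075. Without gRNA library 1 and control library 2, Insig1, Hmgcs1 and Sqle were at 0.0311, 0.0055 and 0.0418, and without control library 6 as well at 0.0968, 0.0448 and 0.12. Leaving out 1 library gave −0.1233 to 0.0152 for Insig1, −0.0147 to 0.1805 for Idi1, −0.0192 to 0.0946 for Fdft1 and −0.1174 to 0.0214 for Sqle.

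For the gRNA effect in batch 2 minus batch 1, Hmgcs1, Fdft1 and Dhcr7 were at −0.01, −0.0169 and −0.0111 without gRNA library 1 and control library 2. Without these and control library 6, Insig1 was at −0.0899, Hmgcs1 at −0.0902, Idi1 at −0.1733, Fdft1 at −0.1352, Sqle at −0.1073, Lss at −0.1896 and Dhcr7 at −0.1458. Leaving out 1 library gave −0.002 to 0.2245 for Insig1, −0.1984 to 0.2755 for Hmgcs1, −0.1092 to 0.3331 for Idi1, −0.0604 to 0.1495 for Fdft1, −0.0424 to 0.2481 for Sqle, −0.1053 to 0.3443 for Lss and −0.0397 to 0.1883 for Dhcr7.

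No paired analysis was possible because the RNA-seq labels carry no replicate number and the P-site table's library names match no label. The other ways of counting P-sites were not run for the same reason. Each member had at least 367 reads in every library.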
